A study of Mus musculus with 9 samples.

Results

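Laminin chains were examined in endothelial cells (ECs) sorted from mouse lungs with and without breast cancer metastases. The chains were the alpha genes Lama1 to Lama5, the beta genes Lamb1, Lamb2 and Lamb3, and the gamma gene Lamc1. They were taken as every probe set, a group of short probes for 1 transcript, that the array annotation assigns to 1 of these genes alone. The 9 chains had 17 such probe sets, of 34945 that name a single gene, and stood among 18193 genes. Lama1 was included because the study treats it as a secreted factor of the metastatic vascular niche. The study drew its niche candidates from induced genes that it judged independent of VEGF after anti-VEGF treatment. Among these it kept genes that, by quantitative PCR on sorted cells of metastatic lungs, it found distinct to ECs beside fibroblasts, hematopoietic and epithelial cells.

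Laminins are trimers of an alpha, a beta and a gamma chain that are secreted together and form part of the sheet on which ECs rest, the basement membrane. The alpha chain carries the main binding sites for integrins and dystroglycan on the cell surface, whereas the beta and gamma chains assemble the trimer and link it to nidogen. In adult vessels the chains encoded by Lama4 and Lama5 predominate, paired mostly with those of Lamb1 or Lamb2 and Lamc1, and the chain encoded by Lama1 is best known from the embryo and from a few epithelial basement membranes.

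All mice were NSG, an immunodeficient strain that accepts human cells, and only females were used according to the methods. Metastatic mice were 6 to 8 weeks old when MDA-MB-231-LM2 cells, a human breast cancer line that colonizes lungs, entered through the tail vein, and their lungs were taken at 3 weeks, on day 21. In 1 group they received B20.4.1.1 (B20), an antibody that neutralizes mouse and human VEGFA, at 10 mg/kg 2 times a week, and in the other control IgG. Healthy mice of matched age received control IgG and no cancer cells. Whole lungs were sorted for CD31 and against CD45, CD11b, CD326, CD140a, CD140b and GFP, so ECs near and far from metastases were measured together, and the metastatic mice were chosen for similar tumor load by bioluminescence. Each group had 3 arrays, labelled biological replicates, and this number limits the precision of every value. In these bulk samples, fewer cells of a type and less RNA per cell cannot be told apart.

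Values are log2 intensities normalized by the authors, and a difference of 1 is a doubling. A gene was represented by its brightest probe set, and brightness was never compared between genes because probes differ in affinity. Differences were tested with limma over all genes and counted as changed (called) where the p adjusted by Benjamini-Hochberg was under 0.05. The lowest correlation of 2 arrays was 0.9906 within a group and 0.977 between groups, and 14 of 15 pan-endothelial markers, Pecam1 (CD31) and Cdh5 (VE-cadherin) included, were not called between metastasis IgG and healthy arrays, where 9.01% of all genes were called.

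In cells sorted as ECs, 5 of the 9 laminin chains were higher in metastatic lungs under control IgG than in healthy lungs, and some markers of macrophages, fibroblasts and pericytes, given further on, were also called higher in the same arrays. Lamb1 rose 3.85-fold, Lama1 1.92-fold, Lama4 1.77-fold, Lamc1 1.72-fold and Lamb3 1.45-fold, and 0 of 9 fell by the same test. Over all genes 5.55% were called higher, 3.46% lower and 9.01% in either direction. The arrays of both groups did not overlap for 6 of 9 chains, against 29.1% of all genes. By the thresholds of the study, a log2 difference over 0.75 with p under 0.05 and adjusted p under 0.25, 4 of 9 chains and 7 of 17 probe sets passed, against 2.79% of all genes and 2.45% of all probe sets. The median difference of the 9 chains was 0.53 log2 units, against -0.00113 over all genes.

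**Figure D1:**
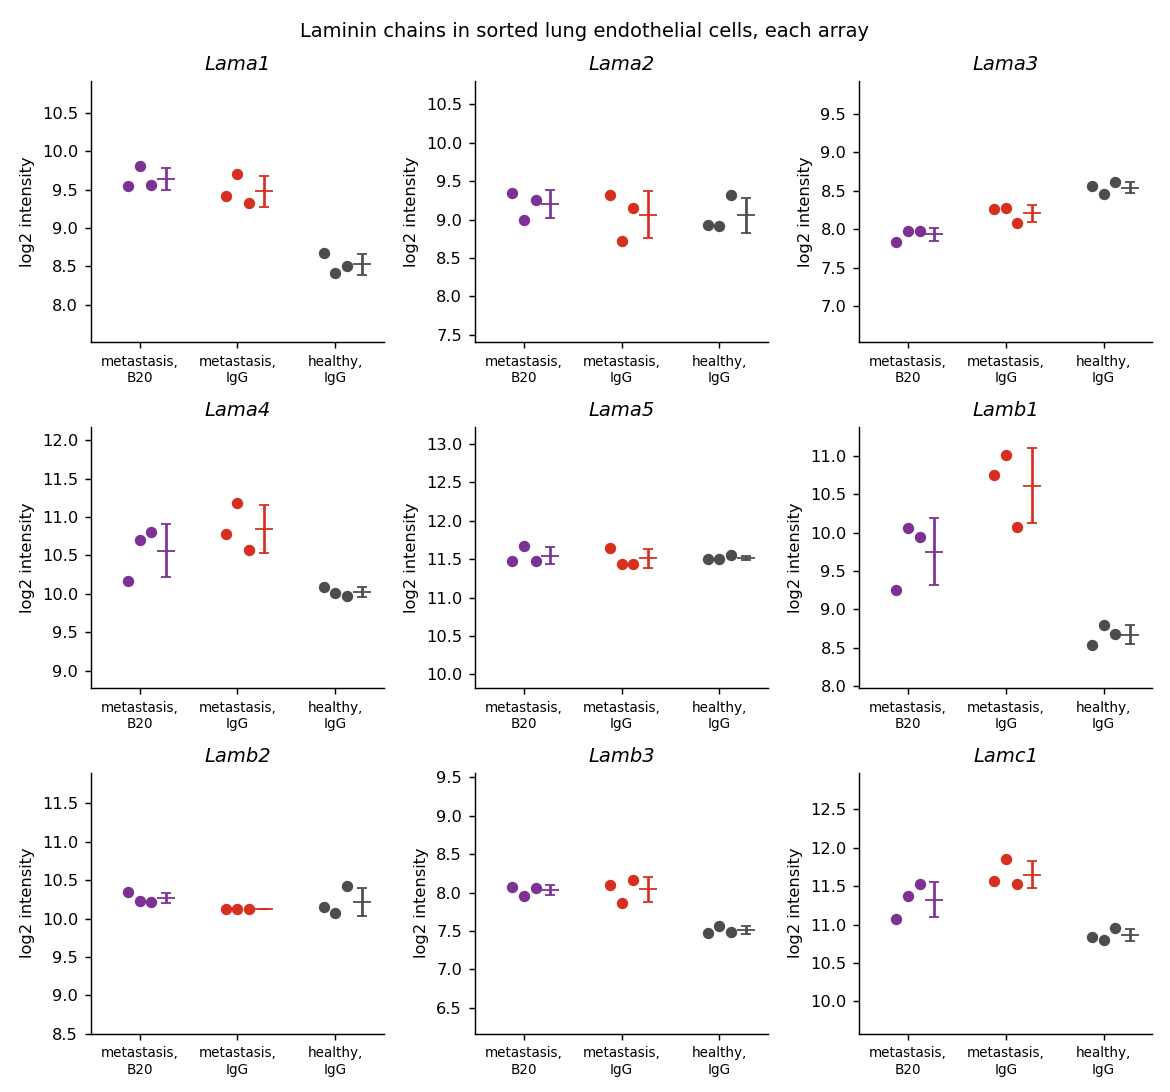
Log2 intensity (vertical axis, the same span in each panel) of the 9 laminin chains in each array, with metastasis B20, metastasis IgG and healthy IgG lungs from left to right. Points are arrays and bars the mean and SD of 3 arrays; the metastasis IgG arrays of Lama1, Lama4, Lamb1, Lamb3 and Lamc1 all lie above the healthy arrays.

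Among the alpha chains, Lama1 was 9.41, 9.70 and 9.32 in metastasis IgG arrays and 8.68, 8.41 and 8.50 in healthy arrays. The lowest metastatic array thus stood above the highest healthy array. The difference was 0.94 ± 0.12 log2 units (SE, n = 3 arrays per group, adjusted p = 0.00254), with a 95% interval of 0.67 to 1.22. It rests on 1 probe set, the only one that names Lama1 alone.

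Lama4, the alpha chain of endothelial basement membranes, was 10.78, 11.18 and 10.57 in metastasis IgG arrays and 10.09, 10.01 and 9.97 in healthy arrays. Here too the groups did not overlap, and the metastatic arrays were spread more widely (SD 0.31) than the healthy ones (SD 0.06). The chain rose by 0.82 ± 0.15 (adjusted p = 0.0118). The second probe set of Lama4 gave 0.68 ± 0.18 with no overlap, but did not pass the test over all probe sets (adjusted p = 0.0612).

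Lama5, the other main alpha chain of vessels, was 11.65, 11.44 and 11.44 in metastasis IgG arrays and 11.50, 11.50 and 11.55 in healthy arrays. These values overlapped, and the interval of the difference, -0.20 to 0.19 log2 units, holds changes from 0.87-fold to 1.14-fold. Its 3 probe sets gave differences of -0.13, -0.00 and 0.11, and 0 of 3 were called.

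Lama2, the alpha chain of muscle and nerve basement membranes, was 9.32, 8.72 and 9.15 in metastasis IgG arrays and 8.93, 8.92 and 9.32 in healthy arrays. The groups overlapped, with a difference of 0.01 ± 0.17 (adjusted p = 0.985) and an interval of -0.38 to 0.40.

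Lama3, an alpha chain of epithelia, stood lower in metastatic lungs, at 8.26, 8.28 and 8.08 in metastasis IgG arrays and 8.56, 8.46 and 8.61 in healthy arrays. No arrays of the groups overlapped, yet the difference of -0.34 ± 0.09 narrowly missed the threshold (adjusted p = 0.0538). It passed when all 9 arrays were fitted together (0.0341), when dim genes were filtered out (0.0366) and with array weights (0.0402). Lama3 stayed uncalled under 6 of 9 alternatives and in 6 of 6 fits with an array left out. Adjusted p was 0.11 with the replicate block, 0.0844 with trend and robust settings and 0.0687 as the mean of its probe sets. Its second, dimmer probe set gave -0.19 ± 0.10 with overlapping arrays (adjusted p = 0.301).

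Among the beta chains, Lamb1, the partner in most vascular laminins, was 10.75, 11.01 and 10.07 in metastasis IgG arrays and 8.54, 8.79 and 8.68 in healthy arrays. Even the lowest metastatic array exceeded every healthy array by more than 1 log2 unit. The rise of 1.94 ± 0.21 (adjusted p = 0.00134, 95% interval 1.45 to 2.44) was the largest of the 9 chains. All 4 probe sets of Lamb1 were called higher without overlap, at 0.82 to 2.02, and 3 of them lay under 7.85, the value below which probe sets were treated as dim, in every healthy array.

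Lamb3, the beta chain of epithelial laminins that pair with Lama3, was 8.10, 7.86 and 8.17 in metastasis IgG arrays and 7.48, 7.57 and 7.49 in healthy arrays. The groups did not overlap, but all 3 healthy values were dim. The rise of 0.53 ± 0.10 (adjusted p = 0.0140) was not called without healthy array 3 (0.0513) or without metastasis IgG array 1 (0.0539). The epithelial alpha chain Lama3 and the epithelial beta chain Lamb3 therefore had differences of opposite sign.

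Lamb2, a beta chain of mature vessels, kidney filters and synapses, was 10.12 in each metastasis IgG array and 10.15, 10.07 and 10.42 in healthy arrays. The metastatic values lay within the healthy range (difference -0.10 ± 0.10, adjusted p = 0.643, 95% interval -0.33 to 0.14).

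Lamc1, the gamma chain shared by nearly all vascular laminins, was 11.57, 11.85 and 11.53 in metastasis IgG arrays and 10.84, 10.80 and 10.96 in healthy arrays. It rose by 0.78 ± 0.10 (adjusted p = 0.00316) without overlap. Both of its probe sets were called, the second with 0.71 ± 0.11 (adjusted p = 0.00562).

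Counted over probe sets, 9 of the 17 were called higher and 0 lower in metastasis IgG against healthy arrays, where 4.43% of all probe sets were called higher, 2.98% lower and 7.41% in either direction. The 9 belonged to Lama1, Lama4, Lamb1, Lamb3 and Lamc1, and the second Lama4 probe set was the only one of these genes that was not called. Of the 17, 6 were dim in all healthy arrays.

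**Figure D2:**
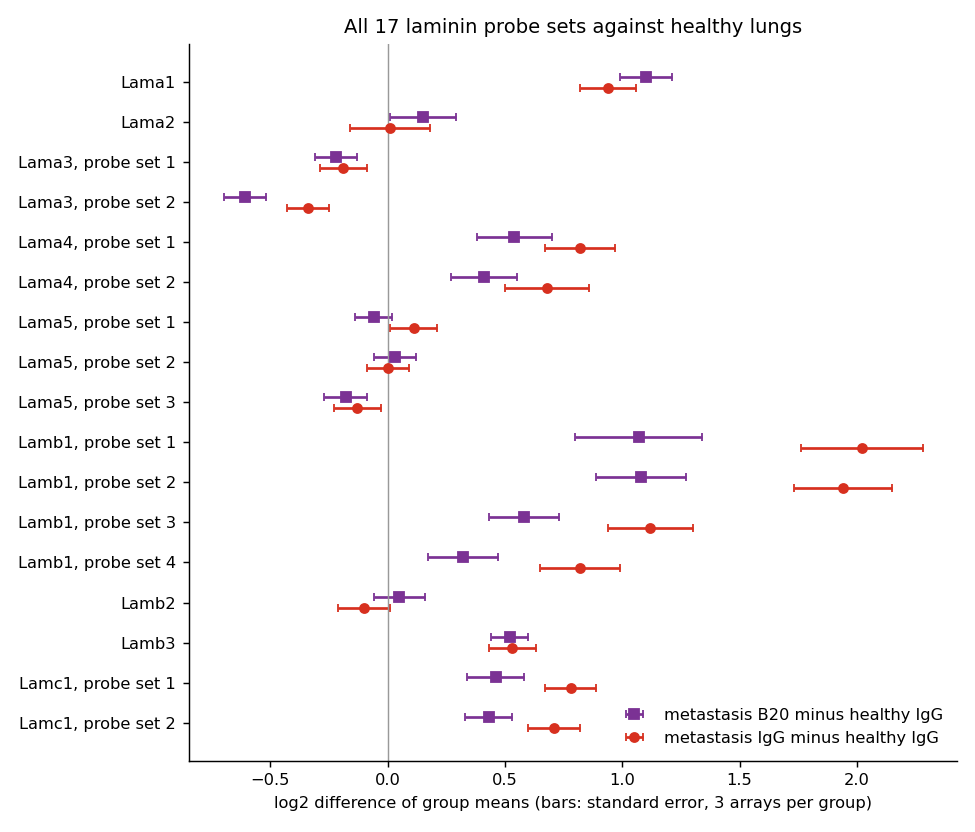
Log2 difference from healthy IgG lungs (horizontal axis) of all 17 laminin probe sets, with metastasis B20 as squares and metastasis IgG as circles; bars are the standard error of a difference of 3 against 3 arrays. The 4 Lamb1 probe sets reach 0.82 to 2.02 under IgG and 0.32 to 1.08 under B20, whereas the Lama1 probe set lies at 0.94 under IgG and 1.10 under B20.

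Metastatic lungs under B20 were set against those under control IgG to ask which chains change when VEGF is blocked. No chain passed the test: 0 of 9 genes and 0 of 17 probe sets were called by limma, as were 0% of all genes. Lamb1 was 9.25, 10.06 and 9.94 in B20 arrays and 10.75, 11.01 and 10.07 in metastasis IgG arrays. The groups did not overlap, but the highest B20 array nearly met the lowest IgG array. Its difference of -0.86 ± 0.27 log2 units had an unadjusted p of 0.0116 and an adjusted p of 0.466, with a 95% interval of -1.47 to -0.25.

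Lama1 did not stand lower under B20. It was 9.55, 9.81 and 9.56 in B20 arrays and 9.41, 9.70 and 9.32 in metastasis IgG arrays, which overlapped. The difference of 0.16 ± 0.12 (adjusted p = 0.796) had an interval of -0.12 to 0.45, that is, 0.92-fold to 1.36-fold. Because the study picked Lama1 among genes it judged independent of VEGF, this value is not an independent reading of that trait.

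Lamc1 was 11.08, 11.37 and 11.53 in B20 arrays and 11.57, 11.85 and 11.53 in metastasis IgG arrays. The difference was -0.32 ± 0.14 (unadjusted p = 0.0434, adjusted p = 0.607), and its second probe set, at -0.28 ± 0.12, had no overlapping arrays. Lama4 was 10.17, 10.70 and 10.81 in B20 arrays, overlapping the metastasis IgG arrays, with a difference of -0.28 ± 0.20 (adjusted p = 0.778). B20 array 1 held the lowest metastatic value of Lama4, Lamb1 and Lamc1.

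Lama3 was 7.84, 7.98 and 7.98 in B20 arrays, each below the 3 metastasis IgG arrays, with a difference of -0.27 ± 0.09 (unadjusted p = 0.0192, adjusted p = 0.504). Lamb2 was 10.34, 10.23 and 10.22, each above the metastasis IgG arrays, with a difference of 0.14 ± 0.08 (adjusted p = 0.718). The differences of Lama2, Lama5 and Lamb3 ran from -0.01 to 0.14 with overlapping arrays.

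By unadjusted p under 0.05, which 8.04% of all genes and 7.63% of all probe sets reached, 3 of 9 chains and 7 of 17 probe sets stood apart, all 3 and all 7 lower under B20. The 7 comprised the 4 probe sets of Lamb1, both of Lamc1 and 1 of Lama3, so they are not 7 independent readings. The arrays did not overlap for 3 of 9 chains, against 13.1% of all genes. The median difference of the 9 genes was -0.01, against -0.006 over all genes.

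**Figure D3:**
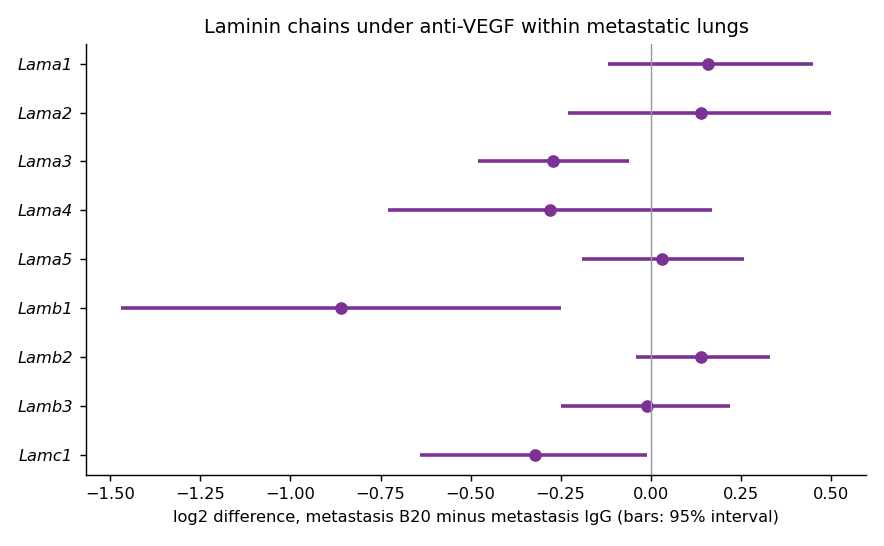
Log2 difference of metastasis B20 minus metastasis IgG lungs (horizontal axis) for the 9 laminin chains; points are differences of means of 3 arrays and bars 95% intervals without adjustment for the number of genes tested. Only the intervals of Lama3 (-0.48 to -0.06), Lamb1 (-1.47 to -0.25) and Lamc1 (-0.64 to -0.01) leave out 0, and 0 of the 9 differences passed the adjusted test.

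Set against healthy lungs, B20 arrays had 3 chains called higher and 1 lower, where 4.15% of all genes were higher and 2.29% lower, 6.44% together. Lama1 rose by 1.10 ± 0.11 (adjusted p = 0.00101, interval 0.86 to 1.35), Lamb1 by 1.08 ± 0.19 (adjusted p = 0.0154) and Lamb3 by 0.52 ± 0.08 (adjusted p = 0.00672). Lama3 fell by 0.61 on the log2 scale, with an SE of 0.08 and an adjusted p of 0.00498. The call of Lamb1 was lost without healthy array 1 (adjusted p = 0.0503), B20 array 2 (0.0541) or B20 array 3 (0.0593). With probe sets without a shared suffix, neither Lamb1 (1.07, adjusted p = 0.0594) nor Lama3 (-0.22, adjusted p = 0.228) was called. Over all probe sets, 1 of the 4 of Lamb1 was called, and the others had adjusted p of 0.0564, 0.0617 and 0.284.

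Lama4 and Lamc1 stood between these outcomes under B20. Their B20 arrays all exceeded the healthy arrays, by 0.54 ± 0.16 for Lama4 and 0.46 ± 0.12 for Lamc1 on average, but neither was called (adjusted p = 0.0857 and 0.0644). Without B20 array 1 both were, with 0.74 for Lama4 (adjusted p = 0.00553) and 0.58 for Lamc1 (adjusted p = 0.0180), as they were with trend and robust settings (0.0394 and 0.0188). Lamc1 was also called as the mean of its probe sets (0.0303) and with dim genes filtered out (0.0479), and its second probe set passed the test over all probe sets (0.43 ± 0.10, adjusted p = 0.0436). Lama4 stayed uncalled under 8 of 9 alternatives and Lamc1 under 6 of 9, and each in 5 of 6 fits with an array left out. Left-out arrays lowered the differences as far as 0.415 for Lama4 and 0.356 for Lamc1. Over all these fits, adjusted p reached 0.236 for Lama4 and 0.183 for Lamc1. Lama2, Lama5 and Lamb2 differed from healthy arrays by 0.03 to 0.15 with overlapping values. Arrays of B20 and healthy lungs did not overlap for 6 of 9 chains, against 26.9% of all genes. Over probe sets, 4 of 17 were called higher and 1 lower, where 3.32% of all were higher, 2.09% lower and 5.41% either. By the thresholds of the study 2 of 9 chains and 3 of 17 probe sets passed, against 2.36% of all genes and 1.98% of all probe sets. These values and those of metastasis IgG share the healthy arrays.

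Distances from the healthy mean set the chains side by side in both metastatic groups. Lama1 stood 1.01, 1.27 and 1.02 above the healthy mean in B20 arrays and 0.87, 1.16 and 0.78 in metastasis IgG arrays. Lamb1 stood 0.59, 1.40 and 1.27 above it in B20 arrays and 2.08, 2.35 and 1.40 in metastasis IgG arrays. The excess of Lamb1 over Lama1 on this scale was -0.43, 0.12 and 0.25 in B20 arrays and 1.21, 1.18 and 0.62 in metastasis IgG arrays, without overlap. Lamc1 minus Lama1 was -0.80, -0.77 and -0.36 in B20 arrays and -0.17, -0.18 and -0.12 in metastasis IgG arrays, again without overlap, whereas Lama4 minus Lama1, at -0.86, -0.59 and -0.23 in B20 arrays and -0.12, -0.01 and -0.24 in metastasis IgG arrays, overlapped. These pairs were picked after the values were seen and were not tested, and with 3 arrays per group an exact two-sided permutation test cannot go below p = 0.1. Each of these pairs also holds Lama1, which the study chose among genes it judged independent of VEGF. A further pair without Lama1, Lamb1 minus Lamc1, was read in the same way and not tested. It was 0.37, 0.89 and 0.60 in B20 arrays and 1.38, 1.36 and 0.73 in metastasis IgG arrays, which overlapped.

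To show regulatory sequence beside a chain that rose and one that was not called, a 30-base stretch of the promoters of Lamb1 and Lama5 is given from RefSeq on mouse build GRCm38.p6. Promoter windows of 5 of the 9 chains were matched by symbol. Capitals mark GGGCGG or its reverse complement, the GC box known to bind Sp-family factors, and letters run 5′ to 3′ on the strand of the gene. The Lamb1 stretch, chr12:31265203-31265232 on the plus strand, covers positions -90 to -61 from the transcription start that the promoter window uses. The Lama5 stretch, chr2:180225900-180225929 on the minus strand, covers -70 to -41. The annotated Lamb1 gene begins before its stretch, at chr12:31265146, and the annotated Lama5 gene begins within its stretch, at chr2:180225904.
Lamb1: tgtcctCCGCCCcctCCGCCCccgctctcc
Lama5: caggcgggcctGGGCGGggcctgacgtcct

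Searched on both strands, the window of 250 bases before to 50 after the start held 2 GC boxes in Lamb1, 4 in Lama5, 1 in Lama2 and 0 in Lamb2 and Lamb3, and 35.7% of all 32851 windows held at least 1. The TATA box TATAAA (13.6% of windows), the hypoxia core ACGTG (19.6%), the E-box CACGTG that contains it (7.15%), the core ACAAT bound by SOX factors (31.0%) and the AP-1 site TGACTCA (5.2%) had no match in Lamb1 or Lama5. A match is a description of letters only.

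Laminin partners in the basement membrane were read from a list of 23 genes, of which 22 were measured. In metastasis IgG against healthy arrays 6 were called higher and 1 lower, where 5.55% of all genes were higher and 3.46% lower, and the median was 0.03. Col15a1 (1.57 ± 0.09, adjusted p = 5.39e-05) and Col18a1 (1.32 ± 0.13, adjusted p = 0.000705), a pair of related collagens of the basement membrane zone, rose most among them, followed by Nid2, a nidogen that ties laminin to collagen IV (0.85 ± 0.16, adjusted p = 0.0141), and Hspg2, the proteoglycan perlecan (0.63 ± 0.09, adjusted p = 0.00371). The main collagen IV chains Col4a1 and Col4a2 were not called, at 0.11 ± 0.09 and 0.20 ± 0.08. Lamc3, a gamma chain outside the 9, was 8.18, 7.93 and 8.13 in metastasis IgG arrays and 8.07, 8.02 and 8.03 in healthy arrays.

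Under B20, Nid2 was 7.86, 8.16 and 8.33, each lower than 8.77, 8.95 and 8.44 in metastasis IgG arrays. The difference of -0.60 ± 0.16 had the smallest p of the list but was not called (adjusted p = 0.433), and 0 of the 22 were (4 had an unadjusted p under 0.05, as did 8.04% of all genes). Against healthy arrays, B20 arrays had 4 of the 22 partners called higher and 1 lower, where 4.15% of all genes were higher and 2.29% lower. Col15a1 (1.30 ± 0.13) and Col18a1 (0.91 ± 0.16) were among the 4, and Smoc1, a matricellular protein, was lower (-0.60 ± 0.14).

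Of 14 laminin receptors measured, 1 was called higher and 0 lower in metastasis IgG against healthy arrays, with a median of 0.00, where 5.55% of all genes were called higher and 3.46% lower. The 1 called was Sdc4, a heparan sulfate proteoglycan that works with integrins at focal adhesions, at 11.05, 11.01 and 10.93 in metastasis IgG arrays and 10.40, 10.61 and 10.58 in healthy arrays (0.47 ± 0.09, adjusted p = 0.0145). In B20 arrays it was 10.98, 11.08 and 11.15, also above healthy lungs (0.54 ± 0.09, adjusted p = 0.0113). Rpsa, which encodes the ribosomal protein also known as the laminin receptor, was higher in all metastatic IgG arrays but not called (0.28 ± 0.08, adjusted p = 0.0598).

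The integrin subunits that bind laminin in ECs, Itga3, Itga6 and Itgb1, had differences of -0.01, -0.02 and 0.12, and Dag1, the gene of dystroglycan, 0.01, and 0 of these 4 were called. Under B20, 0 of 14 receptors were called against metastasis IgG, and 1 had an unadjusted p under 0.05, as did 8.04% of all genes. This receptor was Itga2, an alpha subunit for collagen and laminin, with 0.32 ± 0.10 (adjusted p = 0.474).

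Dystroglycan binds laminin through a sugar chain built by a dedicated set of enzymes, and 11 of 15 such genes were measured. Among them 1 was called in metastasis IgG against healthy arrays, where 9.01% of all genes were called in either direction. This was Dpm3, a subunit of the enzyme that supplies mannose for this chain and for other glycans. It was 10.48, 9.28 and 10.46 in metastasis IgG arrays and 11.39, 11.44 and 11.38 in healthy arrays, a fall of 1.33 on the log2 scale (SE 0.29, adjusted p = 0.0254) in which metastasis IgG array 2 stood far below the others of its group. In B20 arrays Dpm3 was 10.76, 10.48 and 10.37, also below healthy lungs (-0.87 ± 0.11, adjusted p = 0.00311). Its companions Dpm1 and Dpm2 gave -0.15 and 0.06 under IgG and were not called.

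**Figure D4:**
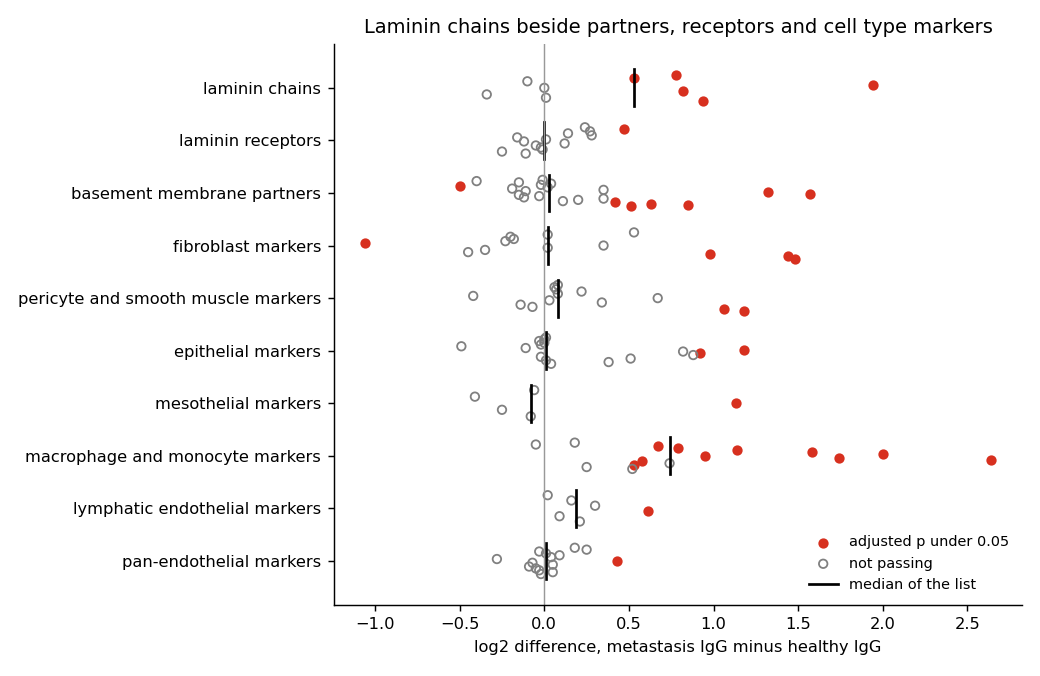
Log2 difference of metastasis IgG minus healthy IgG lungs (horizontal axis) for each gene of the laminin chains, partners, receptors and cell type markers; filled points passed an adjusted p under 0.05, open points did not, and black bars are list medians. The medians of the laminin chains (0.53) and of the macrophage and monocyte markers (0.74) lie right of the others, which run from -0.08 to 0.18.

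Markers of other cells that make laminin or share the lung were read beside these values. Of 13 fibroblast markers, 3 were called higher in metastasis IgG than in healthy arrays and 1 lower, where 5.55% of all genes were higher and 3.46% lower. Col1a1 (1.48 ± 0.14) and Col1a2 (1.44 ± 0.20) rose and Inmt fell by 1.06 on the log2 scale (SE 0.20), while the mean level of the list ranged from 9.57 to 9.82 in B20 arrays, from 9.48 to 9.80 in metastasis IgG arrays and from 9.04 to 9.83 in healthy arrays. The fibroblast genes Pdgfra, the CD140a that the sort excludes, and Dcn were not called, at -0.45 ± 0.35 and -0.35 ± 0.31.

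Of 13 pericyte and smooth muscle markers, 2 were called higher, Pdgfrb (CD140b, 1.18 ± 0.24) and Rgs5 (1.06 ± 0.21), where 5.55% of all genes were. The mean level ranged from 8.57 to 8.71 in B20 arrays, from 8.59 to 8.77 in metastasis IgG arrays and from 8.20 to 8.57 in healthy arrays. The pericyte genes Cspg4, Higd1b and Cox4i2 gave -0.07, 0.06 and 0.08.

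Of 16 epithelial markers 2 surfactant genes were called higher, Sftpd (1.18 ± 0.27) and Sftpb (0.92 ± 0.20), where 5.55% of all genes were. Mean levels were 8.98 to 9.30 in B20 arrays, 8.99 to 9.35 in metastasis IgG arrays and 8.59 to 9.22 in healthy arrays. Epcam (CD326) was 7.66, 7.49 and 7.90 in metastasis IgG arrays and 7.55, 7.70 and 7.70 in healthy arrays. Of 5 mesothelial markers 1 was called, Wt1 (1.13 ± 0.20), at 7.54, 7.64 and 7.40 in metastasis IgG arrays and 6.06, 6.92 and 6.21 in healthy arrays. Wt1 was dim (under 7.85) in every array, and Msln ran from 7.06 to 7.49 over all arrays. Of 6 lymphatic markers 1 was called, Pdpn (0.61 ± 0.15). Wt1 and Pdpn were called higher, as were 5.55% of all genes.

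Of 15 macrophage and monocyte markers 10 were called higher, where 5.55% of all genes were, and the median was 0.74. Mean levels were 9.15 to 9.53 in B20 arrays, 9.14 to 9.33 in metastasis IgG arrays and 8.13 to 8.44 in healthy arrays. C1qa, a complement chain made by macrophages, rose by 2.64 ± 0.14 and its partner C1qb by 1.74 ± 0.19. Ms4a7, a membrane protein of macrophages, was 8.63, 8.55 and 8.37 in metastasis IgG arrays and 6.56, 6.36 and 6.62 in healthy arrays. Ptprc (CD45, 0.52 ± 0.21) and Itgam (CD11b, 0.25 ± 0.15), which the sort excludes, were not called, nor was Fcgr1 (-0.05 ± 0.14). Between B20 and metastasis IgG arrays 0 members of any of these marker lists were called by limma, as were 0% of all genes. In that comparison 1 fibroblast, 1 pericyte and 2 macrophage markers had an unadjusted p under 0.05, as did 8.04% of all genes. The part of these other cells' RNA in the rise of Lama1, Lama4, Lamb1, Lamb3 and Lamc1 was not tested.

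Genes with the most similar profile were those whose log2 values, centred on their own mean over the 9 arrays, had the smallest root mean square difference from a chain. For Lama1 they were Ncoa7, a nuclear receptor coactivator (0.0732 log2 units), Mmp14, a membrane-bound matrix protease (0.114), the interferon-induced Rtp4 (0.118), Rab11fip5, of endosome recycling (0.121), and Zfp521, a zinc finger factor (0.128). All 5 were 0.82 to 1.03 higher in metastasis IgG than in healthy arrays and differed by 0.02 to 0.23 between B20 and metastasis IgG arrays.

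Lamb1 was nearest to Zwilch, of the kinetochore checkpoint (0.191), and Uhrf1, which maintains DNA methylation through replication (0.195), which differed by -0.71 and -0.82 between B20 and metastasis IgG arrays. Lamc1 was nearest to E2f3, a cell cycle transcription factor (0.0701), and Kpna2, a nuclear import receptor (0.0881), and Lama4 to Cd109, a surface antigen (0.0575), and Kctd17 (0.103). Lamb3 was nearest to Relb, an NF-kB subunit (0.068), and Osmr, the oncostatin M receptor (0.076), which differed by -0.01 and 0.12 between B20 and metastasis IgG arrays. All these genes were chosen by their likeness over the same arrays, so group differences close to those of the chain follow from the choice. These are likenesses over 9 arrays in 3 groups and are descriptions only.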

How the data were processed

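The authors extracted RNA from sorted lung ECs, hybridized it to Affymetrix mouse arrays and normalized the arrays by robust multiarray averaging (RMA), and the deposited values are log2 intensities of 45101 probe sets in 9 arrays. RMA forces the arrays to the same distribution and compresses dim probe sets. The values were used as they are. Control (64), several-gene (932) and unnamed (9160) probe sets were left out, which left 34945 of 18193 genes, and the probe set of highest mean stood for a gene. Gene names are those of the platform annotation.

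Each comparison was fitted on its own 6 arrays in limma 3.58.1 (R 4.3.3, lmFit and eBayes, two-sided), adjusted over all genes or all probe sets, with SE and 95% intervals of the difference. The test was tried on simulated data first. Alternatives were a fit of all 9 arrays, a replicate block, a filter at the 40th percentile (7.85) in at least 3 arrays, array weights, centring, eBayes with trend and robust settings, quantile normalization once more, other choices of probe set, the thresholds of the study (log2 difference over 0.75, p under 0.05, adjusted p under 0.25) and each array left out in turn. From each list of partners or receptors up to 4 called genes of largest difference were named, or the 2 of smallest p, from each marker list up to 3, and for nearest profiles 5 genes for Lama1 and 2 for other called chains; Lamc3, Itga3, Itga6, Itgb1, Dag1, Col4a1, Col4a2, Dpm1, Dpm2, Pecam1, Cdh5 and marker genes that were not called were named beyond that. The chains and lists were chosen with earlier results of these data known. Promoter sequences came from RefSeq (GRCm38.p6). Figures were drawn with Python 3.11.15, pandas 2.3.3 and matplotlib 3.10.9.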

Additional observations from a re-analysis of the deposited data

How the results depend on the processing

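In metastasis IgG against healthy lungs, 4 to 6 chains (main value 5) and 7 to 10 probe sets (main value 9) were called over the alternatives, and 4 to 5 chains and 6 to 9 probe sets when single arrays were left out. Lama1, Lama4, Lamb1 and Lamc1 were called there under each alternative that tested single genes. Between B20 and IgG, 0 were called under every alternative. In B20 against healthy lungs the 4 chains called became 2 by the thresholds of the study and 1 with probe sets without a shared suffix, and 3 to 6 with an array left out. The 5 probe sets became 9 with trend and robust settings and 3 by the thresholds of the study, and 3 to 10 with an array left out (3 without healthy array 1, B20 array 2 or B20 array 3, and 10 without B20 array 1). The cause was not tested.

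Differences near 0 changed sign. In metastasis IgG against healthy lungs Lama5 was 0.0207 with array weights, and leaving out arrays gave -0.121 to 0.18 for Lama2, -0.0723 to 0.0303 for Lama5 and -0.167 to 0.0089 for Lamb2. In B20 against metastasis IgG, Lama5 was -0.00218 with array weights, -0.0648 as the mean of its probe sets and -0.0542 without shared suffixes, and left-out arrays gave -0.0351 to 0.266 for Lama2, -0.032 to 0.101 for Lama5 and -0.108 to 0.0494 for Lamb3. In B20 against healthy lungs Lama5 was -0.0709 as the mean of its probe sets and -0.181 without shared suffixes, and left-out arrays gave -0.0362 to 0.0622 for Lama5 and -0.0222 to 0.153 for Lamb2. Lamb3 has no value without shared suffixes, since its only probe set carries one.

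The replicate number used as a block left the counts at 5, 0 and 4 chains and 9, 0 and 5 probe sets. Same-numbered arrays did not deviate together (9 pairs, r of -0.0757 to 0.0138, against up to 0.177 for pairs with different numbers). These values show no pairing by number, but they cannot tell whether same-numbered samples were handled together. With 3 arrays per group small differences could not be resolved, and 6 of 17 probe sets were dim in all healthy arrays.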
